A study of Macaca mulatta with 24 samples.

Results

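Metallothioneins and the zinc transporters of the SLC30A and SLC39A families were examined in airway epithelial cultures of rhesus macaques exposed to wood smoke or filtered air. The genes were taken by symbol: MT followed by a digit from 1 to 4 and at most 1 letter, or any symbol that starts with SLC30A or SLC39A. Of the 35432 genes in the table, 30 met this rule, namely 5 metallothioneins, 11 rows of SLC30A genes and 14 SLC39A genes. In 22 of the 30 the value reached 10 in at least 4 libraries, the filter for testing, and these were 3 metallothioneins, 7 SLC30A rows and 12 SLC39A genes.

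The cells were primary epithelial cells from the trachea and bronchi of 4 adult females (S1 to S4), grown on inserts and differentiated with their upper surface exposed to air, in medium with retinoic acid. Their ages in days were 5463 (S1), 2930 (S2), 2238 (S3) and 1128 (S4), and their body weights 5.59, 7.17, 4.56 and 3.18 kg. Age, weight and animal therefore cannot be told apart. Cultures received filtered air or diluted whole wood smoke in sessions of 6 hours, and were collected after 1 day, after 5 days, or 7 days after the last of 5 exposure days (recovery). Every group held 1 library from each animal, which gives 6 groups of 4 and 24 libraries.

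Zinc is needed by many enzymes and transcription factors, and free zinc in the cytosol is kept very low. Metallothioneins are small cysteine-rich proteins that bind zinc, copper and cadmium. Proteins of the SLC30A family (ZnT) move zinc out of the cytosol, across the plasma membrane or into vesicles and the Golgi, and proteins of the SLC39A family (ZIP) move zinc into the cytosol. Transcription of metallothioneins and of the exporter gene SLC30A1 is known to be raised by zinc through the metal-responsive factor MTF1. Metals, glucocorticoids and oxidants are known inducers of metallothioneins, and SLC39A8 and SLC39A14 also carry manganese, iron and cadmium.

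Values are normalized counts, which are not scaled to gene length, so levels were compared between libraries and not between genes. Below, 4 values in a row are those of S1, S2, S3 and S4. The table's library totals ranged from 11.8 to 15.2 M, and approximate depths from 9.45 to 17.4 M reads. One library, from S1 after 5 days of air, correlated less with the others (median 0.86) than the remaining 23 did (0.931 to 0.956) and is called the outlying air library below. It had the highest of the 24 values in 7 of the 22 genes, MT1E and MT1X among them, and the lowest in 9, including both SLC30A1 rows and SLC30A7. Over all 14062 genes tested it was highest in 27.6% and lowest in 28.5%. It also held the highest total (15.2 M) and the lowest approximate depth (9.45 M reads). Calls of named genes that use the 5-day air group are therefore given with and without it. Counts over many genes and non-overlap include it unless stated. Epithelial markers were present (EPCAM from 889 to 3291, KRT19 from 34141 upward), and markers of other cell types were mixed. Of 6 leukocyte markers, PTPRC, CD3E, CD79A and MS4A1 did not exceed 8.64, while CD68 ranged from 194.0 to 932.2 and LYZ from 1471 to 4679. Of 6 fibroblast markers, LUM was listed at 0 throughout and DCN reached 2.15, while COL1A1, COL1A2 and COL3A1 reached 33.9, 21.7 and 67.0 and PDGFRA ranged from 339.8 to 684.8. Of 3 endothelial markers, CDH5 was listed at 0, while PECAM1 ranged from 11.8 to 179.8 and VWF from 50.9 to 120.9.

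The 8 genes below the filter were MT3, MT4, SLC30A3, SLC30A4, SLC30A8, SLC30A10, SLC39A5 and SLC39A12. MT4, a metallothionein of stratified epithelia, and SLC30A8, the exporter of insulin granules, were listed at 0 in all 24 libraries. MT3, best known from brain, reached 2.12 at most. The highest values of the others were 7.54 for SLC30A4, 4.44 for SLC30A3, 2.14 for SLC39A12, 1.69 for SLC39A5 and 0.942 for SLC30A10. Nearest to the filter among the genes that passed were SLC39A4, an importer of the intestinal surface, with 18 libraries at 10 or more (range 4.18 to 102.9), and the second SLC30A1 row, with 22 (range 1.60 to 44.5).

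Some symbols need care. SLC30A1 stands on 2 rows: ENSMMUG00000056449, which the reference also names SLC30A1, and ENSMMUG00000000868, which had no match in the reference used here. The metallothionein genes are near copies of each other and are neighbours on 1 chromosome in the RefSeq annotation (T2T-MMU8v2.0), in the order MT4, MT3, MT2A, MT1L, MT1E, MT1M, MT1J, MT1A and MT1X. Of these 9, 5 are in the table by symbol, and reads from the others could be counted to them, so the split between MT2A, MT1E and MT1X is uncertain. A row without a symbol in the table, ENSMMUG00000054300, is also named MT1E in the reference and lay between 0 and 19.3, with 3 libraries at 10 or more.

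The first question was whether wood smoke changed the metal-binding genes. No metallothionein passed the test at any of the 3 times. Values of MT2A after 1 day were 684.6, 603.1, 263.0 and 421.7 in air and 681.6, 714.4, 257.2 and 444.6 in smoke. After 5 days they were 998.0, 475.1, 252.8 and 318.6 in air and 502.2, 536.7, 256.1 and 380.5 in smoke. After recovery they were 1750, 1724, 1084 and 1202 in air and 1187, 1380, 1193 and 936.2 in smoke. Air and smoke overlapped at each time, and the libraries of S3 were the lowest at 1 day and at 5 days. The smoke effect on MT2A was 0.07 on the log2 scale at 1 day (95% interval −0.73 to 0.87), −0.13 at 5 days (−0.93 to 0.66) and −0.28 after recovery (−1.07 to 0.52). With animal as a block, the intervals narrowed to −0.38 to 0.52, −0.58 to 0.31 and −0.72 to 0.17. Without the outlying air library the 5-day effect was 0.26 (−0.48 to 1.00), of the other sign, and with the block as well it was 0.14 (−0.20 to 0.49).

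MT1E and MT1X gave smoke effects close to 0 at 1 day (−0.02 ± 0.27 and 0.02 ± 0.88, log2 ± SE) and after recovery (−0.07 ± 0.27 and −0.06 ± 0.88). Each had its smallest p at 5 days. MT1E was 2177, 884.9, 571.2 and 912.3 in air and 844.1, 760.3, 626.2 and 681.2 in smoke. MT1X was 538.0, 190.4, 29.3 and 105.9 in air and 175.6, 205.3, 38.0 and 127.4 in smoke. The groups overlapped, and the outlying air library held the highest value of both genes. The effect on MT1E at 5 days was −0.47 ± 0.27 (limma adjusted p = 0.607) with all libraries and −0.15 (adjusted p = 0.477) without that library and with animal as a block. For MT1X the corresponding values were −0.22 (adjusted p = 0.960) and 0.19 (adjusted p = 0.676), so the sign turned.

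**Figure D1:**
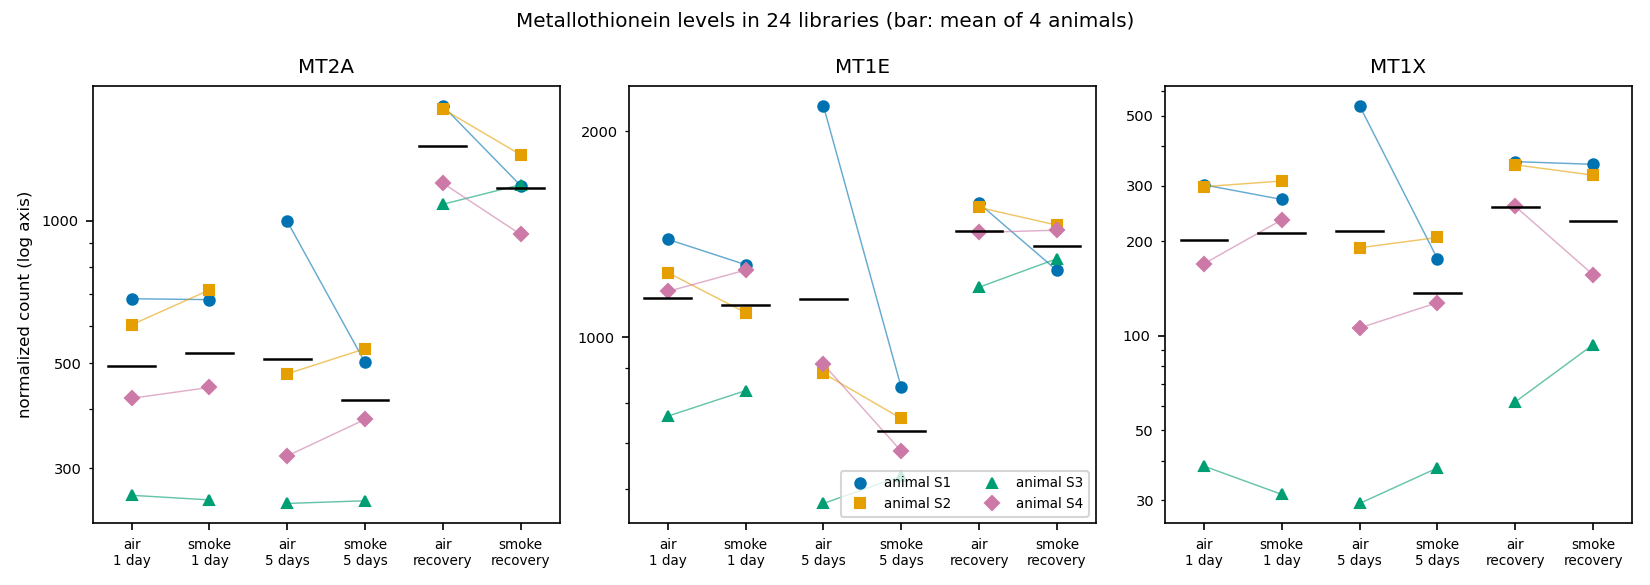
Normalized counts (log axis) of MT2A, MT1E and MT1X in the 6 groups, 1 point per library, with lines joining air and smoke of the same animal and bars for the mean of 4 animals. MT2A was at 1084 or more in air after recovery and at 998.0 or less at the earlier times, and MT1X of S3 was at 93.7 or less in every group.

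Differences between animals were large for the metallothioneins. MT1X of S3 lay between 29.3 and 93.7 over the 6 groups, while no other animal's library was under 105.9. S3 was the lowest animal for MT1X in 6 of 6 groups and for MT2A and MT1E in 5 of 6. Over all 22 genes, the same animal was lowest in every group for 3 genes (13.6%), against 11.4% of all genes tested. These 3 were MT1X, SLC39A7 and SLC39A11, all lowest in S3. The same animal was highest in every group for 4 of 22 (18.2%), against 17.5% of all genes, namely SLC39A7 and SLC39A8 in S1, SLC39A9 in S3 and SLC30A2 in S4.

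Zinc transporters were compared between smoke and air in the same way. After 1 day, 0 of 22 genes were called at an adjusted p under 0.05, where 0.0284% of all genes tested were. After 5 days 0 of 22 were called, against 0.0711% of all genes, and after recovery 0 of 22, against 0.242%. At an unadjusted p under 0.05 there were 0 members of 22 at 1 day, against 1.88% of all genes tested. At 5 days there were 2 (SLC30A1 ENSMMUG00000056449 higher and SLC39A1 lower), against 9.29%. After recovery there was 1 (SLC39A2 lower), against 8.51%. The median effect over the 22 genes was −0.03 at 1 day, −0.02 at 5 days and 0.03 after recovery, beside 0.00, 0.01 and 0.01 over all genes tested. Whether the smoke effect differed between times was tested directly, and 0 of 22 genes were called in each of the 3 comparisons, against 0.0142% of all genes from 1 day to 5 days, 0.348% from 5 days to recovery and 0.00711% from 1 day to recovery.

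SLC39A2, which encodes an importer of the cell surface, had the largest smoke effect of the 22 genes after recovery. Its values were 41.4, 37.9, 49.9 and 31.6 in air and 25.5, 21.6, 19.8 and 20.7 in smoke. All 4 smoke libraries were below all 4 air libraries, as in 4.37% of all genes tested in this direction. Smoke was lower by 1.784-fold on the log2(value + 1) scale (log2 −0.84 ± 0.27, 95% interval −1.40 to −0.27). This was not called without a block (adjusted p = 0.274) and was called with animal as a block (adjusted p = 0.0275), where 1 of 22 genes was called lower against 2.28% of all genes. At 5 days SLC39A2 was also lower in smoke in all 4 animals, at 32.0, 25.3, 36.2 and 19.9 in air and 31.4, 21.1, 20.1 and 17.3 in smoke, with overlapping groups (−0.32 ± 0.27, adjusted p = 0.725, and 0.396 with the block). At 1 day 2 animals were lower and 2 higher, and the groups overlapped. The change of its smoke effect from 1 day to recovery was −0.67 (adjusted p = 0.353 with the block), which was not called. Group means of SLC39A2 at 1 day, 5 days and recovery were 26.4, 28.3 and 40.2 in air and 23.5, 22.5 and 21.9 in smoke. The recovery difference thus came with a higher level in air, while smoke changed little. In air all recovery libraries were above all 1-day libraries, as in 7.92% of all genes. This rise in air was not called without or with the block. The values of SLC39A2 are low, near those of the filter.

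After recovery the sum of the basal cell markers was also lower in smoke. The summed level of the 4 markers in the table (KRT5, TP63, NGFR and ITGA6, of 6 listed) ranged from 39440 to 49480 in air and from 13752 to 31066 in smoke. This sum is mostly KRT5, with a median of 34752 over the 24 libraries, beside 530.8 for TP63, 1063 for NGFR and 1364 for ITGA6. KRT5 was lower by 1.22 on the log2 scale (log2 −1.22 ± 0.22, adjusted p = 0.0173). In these bulk libraries fewer cells of a type and less RNA per cell cannot be told apart. Their part in the SLC39A2 result was not tested.

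SLC39A9, an importer of the Golgi, was also apart after recovery, with 1662, 1618, 1719 and 1676 in air and 1503, 1420, 1549 and 1428 in smoke. Every smoke library was below every air library. This held for 2 of 22 genes (SLC39A2 and SLC39A9), against 4.37% of all genes tested. Group means of SLC39A9 at 1 day, 5 days and recovery were 1538, 1443 and 1669 in air and 1505, 1476 and 1475 in smoke. The difference for SLC39A9 was small, −0.18 ± 0.09 (adjusted p = 0.650, and 0.181 with the block). Leaving out the outlying air library, which enters only the spread and the animals' levels here, it was called with the block (adjusted p = 0.0311). In that fit SLC39A1 was called higher (0.17, adjusted p = 0.0444) and SLC39A2 lower (adjusted p = 0.00923), where 8.70% of all genes were called higher and 10.1% lower.

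**Figure D2:**
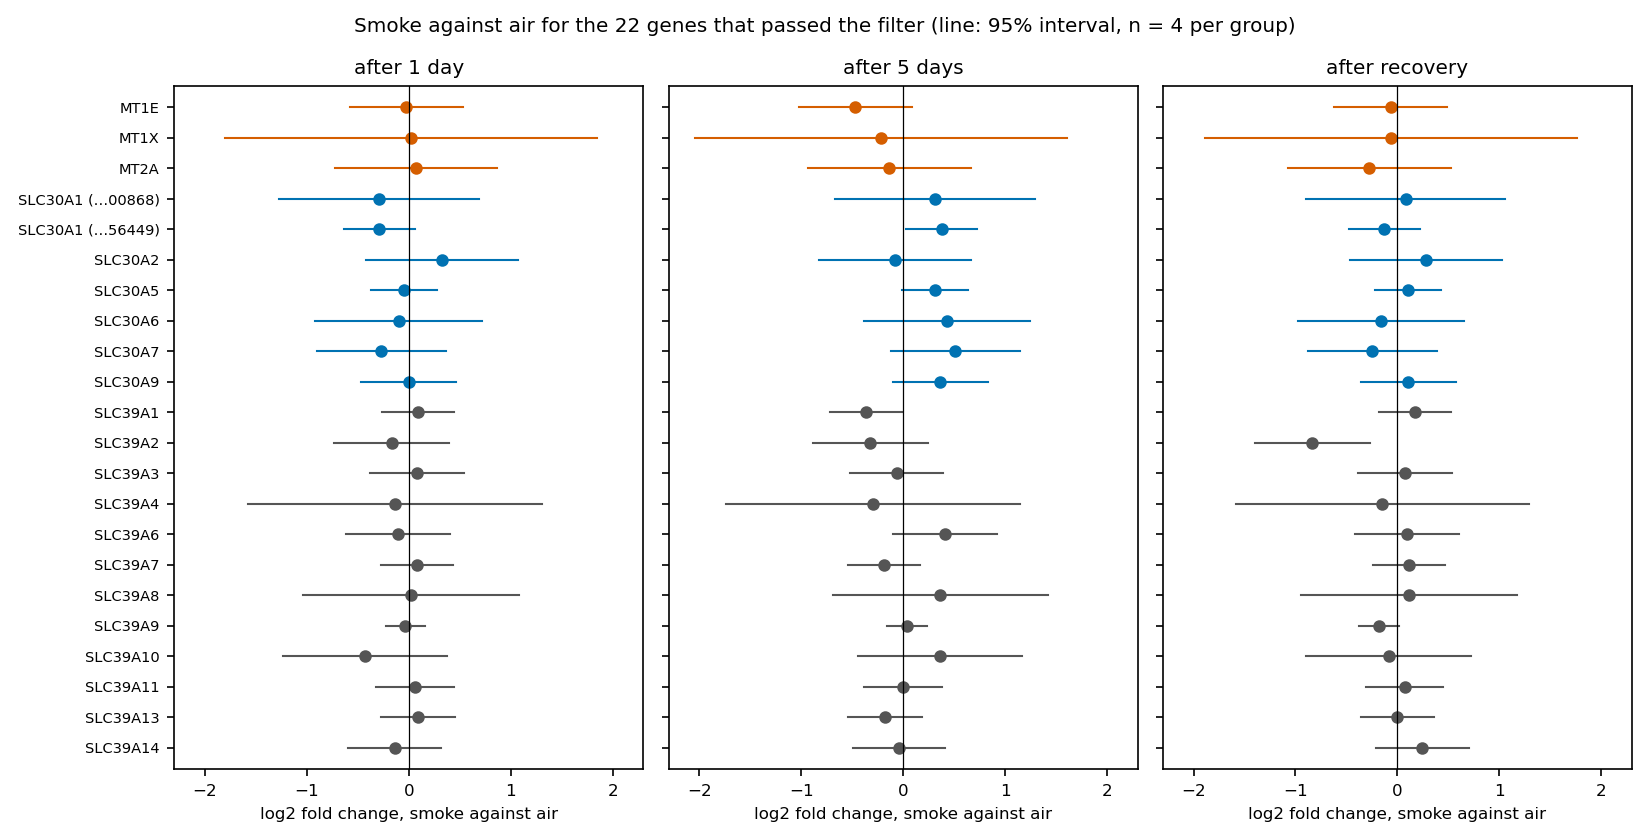
Log2 fold change of smoke against air with its 95% interval for the 22 genes that passed the filter, at 1 day, 5 days and after recovery (n = 4 animals per group, all 24 libraries in the fit). Most intervals cross 0, and that of SLC39A2 after recovery runs from −1.40 to −0.27.

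After 1 day of smoke, SLC30A7 and SLC39A10 were apart from air. SLC30A7, which loads zinc into the Golgi, was 315.9, 313.6, 319.3 and 307.9 in air and 250.0, 306.1, 239.1 and 251.4 in smoke. SLC39A10, an importer of the plasma membrane, was 262.1, 270.4, 311.6 and 277.2 in air and 184.9, 221.3, 207.6 and 217.5 in smoke. Smoke was lower in all 4 animals for both, with no overlap, a pattern found in 2.59% of all genes tested. The effect on SLC39A10 was −0.43 (adjusted p = 1, without and with the block). SLC30A1 (ENSMMUG00000056449), the plasma membrane exporter, was also lower in all 4 animals, at 360.8, 326.8, 284.4 and 305.3 in air and 258.5, 285.7, 231.0 and 270.3 in smoke, with overlapping groups. SLC30A2, a vesicle exporter known for zinc secretion into milk, was higher in all 4 animals, from 294.5, 452.7, 602.4 and 721.8 in air to 348.8, 589.6, 730.4 and 959.5 in smoke. The fit on the 8 libraries of 1 day alone, with animal as a block, called these 4 genes: SLC39A10 (adjusted p = 0.00556), SLC30A1 (−0.29, adjusted p = 0.0285) and SLC30A7 lower and SLC30A2 higher (0.33, adjusted p = 0.00237). In that fit 4.86% of all genes were called lower and 4.25% higher.

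At 5 days the outlying air library moved the smoke effects. SLC30A1 (ENSMMUG00000056449) was 96.6, 204.8, 169.4 and 162.1 in air and 234.0, 212.4, 184.9 and 171.6 in smoke. Smoke was higher in all 4 animals, and the effect was 0.38 ± 0.17 (adjusted p = 0.504) with all libraries and 0.12 (adjusted p = 0.510) without the outlying library and with the block. SLC39A1, an importer of the plasma membrane, was lower in smoke in all 4 animals, with 2884 in air and 1452 in smoke in S1 and 1265 and 1242 in S3. Its effect was −0.36 ± 0.17 (adjusted p = 0.530), and −0.14 (adjusted p = 0.192) in the second fit. SLC30A5, an exporter of the early secretory pathway, gave 0.32 (adjusted p = 0.552) and 0.07 in the 2 fits.

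The second question was how the genes behaved in the air cultures over time. MT2A was higher after recovery than at the earlier times in all 4 animals. Against 5 days it rose 3.18-fold (log2 1.67 ± 0.38, adjusted p = 0.0102), and against 1 day 3.04-fold (1.60 ± 0.38, adjusted p = 0.0298). The recovery values, given above, did not overlap with either earlier group, as in 8.29% of all genes against 5 days and 7.92% against 1 day in this direction. Between 1 day and 5 days MT2A gave −0.07 ± 0.38 (adjusted p = 0.939). Without the outlying air library the rise from 5 days was 2.06 ± 0.35 (adjusted p = 0.00108), and with the block as well it was 1.95 (adjusted p = 1.03e-07). The rise from 5 days was not called without S2 (adjusted p = 0.0713) or S4 (adjusted p = 0.0989), nor in a fit on the 8 libraries compared (adjusted p = 0.157, and 0.078 with the block). The rise from 1 day lost its call without S2, S3 or S4, without the 1-day air libraries of S3 or S4, and without the recovery air libraries of S1, S2 or S4 (adjusted p from 0.0554 to 0.275).

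MT1E and MT1X had the same sign as MT2A from 5 days to recovery, but were not called with all libraries. MT1E after recovery was 1568, 1547, 1183 and 1422, and its effect was 0.51 ± 0.27 (adjusted p = 0.211). MT1X was 357.7, 349.4, 61.6 and 257.8, with an effect of 0.65 ± 0.88 (adjusted p = 0.662). Without the outlying library and with the block, MT1E was higher by 0.83 (adjusted p = 1.64e-05) and MT1X by 1.06 (adjusted p = 0.00118), and 13.6% of all genes were called higher. Without a block, leaving out the library called MT1E (0.88, adjusted p = 0.00639) and not MT1X, against 4.62% of all genes. In the first of these fits MT1E fell from 1 day to 5 days by 0.48 on the log2 scale (adjusted p = 0.0049, where 8.95% of all genes were called lower), against −0.15 (adjusted p = 0.763) with all libraries.

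The ratio of MT2A to MT1E within a library was examined after the values had been seen. It lay between 0.343 and 0.493 in air at 1 day, between 0.349 and 0.537 at 5 days and between 0.845 and 1.12 after recovery. The recovery values did not overlap with the others, and the ratio was higher in 4 of 4 animals. Its mean log2 was higher by 1.17 than at 5 days. An exact two-sided permutation test of 4 against 4 libraries, which did not use the pairing by animal, gave p = 0.0286. This is the smallest p that the 70 assignments allow. After Benjamini-Hochberg adjustment over 9 comparisons it was 0.128, above the threshold. An adjusted value under 0.05 would have needed most of the 9 comparisons to reach this smallest p. The ratio was also chosen from these same values, so no conclusion is drawn from the test. In smoke the ratio was 0.308 to 0.658 at 1 day, 0.409 to 0.706 at 5 days and 0.653 to 0.949 after recovery.

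SLC30A1 was lowest at 5 days. In air, ENSMMUG00000056449 was 360.8, 326.8, 284.4 and 305.3 at 1 day, 96.6, 204.8, 169.4 and 162.1 at 5 days, and 370.7, 335.2, 344.7 and 294.5 after recovery. All 5-day libraries were below all libraries of the other times. Of all genes, 7.25% were apart in this way from 1 day to 5 days, and 8.29% were apart and higher from 5 days to recovery. It fell from 1 day to 5 days by 1.05 on the log2 scale (SE 0.17, adjusted p = 0.00284) and rose from 5 days to recovery by 1.13 (SE 0.17, adjusted p = 0.000286). Without the outlying library the changes were −0.84 ± 0.12 (adjusted p = 0.00103, where 2.47% of all genes were called lower) and 0.91 ± 0.12 (adjusted p = 9.53e-05). In a fit on the 8 libraries compared neither was called (adjusted p = 0.243 and 0.133), and the fall was not called without S4 (adjusted p = 0.071). The second row, ENSMMUG00000000868, was 38.9, 44.5, 34.4 and 28.3 at 1 day and 1.60, 12.6, 14.5 and 29.3 at 5 days. The 1.60 of S1, in the outlying library, is about 1 read, as 1 read there stands for about 1.61. S4 did not go down and the groups overlapped. Its fall was −1.71 ± 0.47 (adjusted p = 0.0450) and −0.998 (adjusted p = 0.0636) without the outlying library, where it was not called.

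SLC30A7 was 53.4, 215.3, 221.1 and 219.4 in air at 5 days and 342.5, 349.6, 362.7 and 394.5 after recovery. Its rise was 1.23 ± 0.30 (adjusted p = 0.0149), and 0.72 ± 0.15 (adjusted p = 0.00472) without the outlying library. It was not called without S2 (adjusted p = 0.0596) or S4 (adjusted p = 0.0818), nor with the 8 libraries compared alone (adjusted p = 0.281). From 1 day to 5 days it was lower by 1.02 on the log2 scale (log2 −1.02 ± 0.30), just short of the threshold (adjusted p = 0.0585) and called with the block (adjusted p = 0.0268). That change was −0.52 without the outlying library (adjusted p = 0.0545), and −0.49 with the block as well (adjusted p = 0.0162). The groups did not overlap in either interval. Of all genes tested, 7.25% were apart and lower from 1 day to 5 days, and 8.29% apart and higher from 5 days to recovery.

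By count, 2 of 22 genes were called lower from 1 day to 5 days in air (both SLC30A1 rows), against 2.32% of all genes tested, and 0 higher, against 1.66%. From 5 days to recovery, 3 of 22 were called higher (MT2A, SLC30A1 and SLC30A7), against 5.87%, and 0 lower, against 5.47%. From 1 day to recovery, 1 was called higher (MT2A), against 0.981%, and 0 lower, against 1.21%. With animal as a block the counts were 6, 9 and 3. The block called 3 genes in each direction from 1 day to 5 days, against 9.88% of all genes higher and 9.52% lower. From 5 days to recovery it called 6 higher and 3 lower, against 14.2% and 14.1%. From 1 day to recovery it called 2 higher and 1 lower, against 6.63% and 6.34%. The median of the 22 effects from 5 days to recovery was 0.35, beside 0.02 over all genes, and was 0.65 for the 3 metallothioneins, 0.68 for the 7 SLC30A rows and −0.07 for the 12 SLC39A genes. These medians without the outlying library were 0.11 over the 22 genes, 1.32 for the metallothioneins, 0.24 for the SLC30A rows and −0.05 for the SLC39A genes. With the block as well they were 0.15, 1.06, 0.23 and −0.03.

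**Figure D3:**
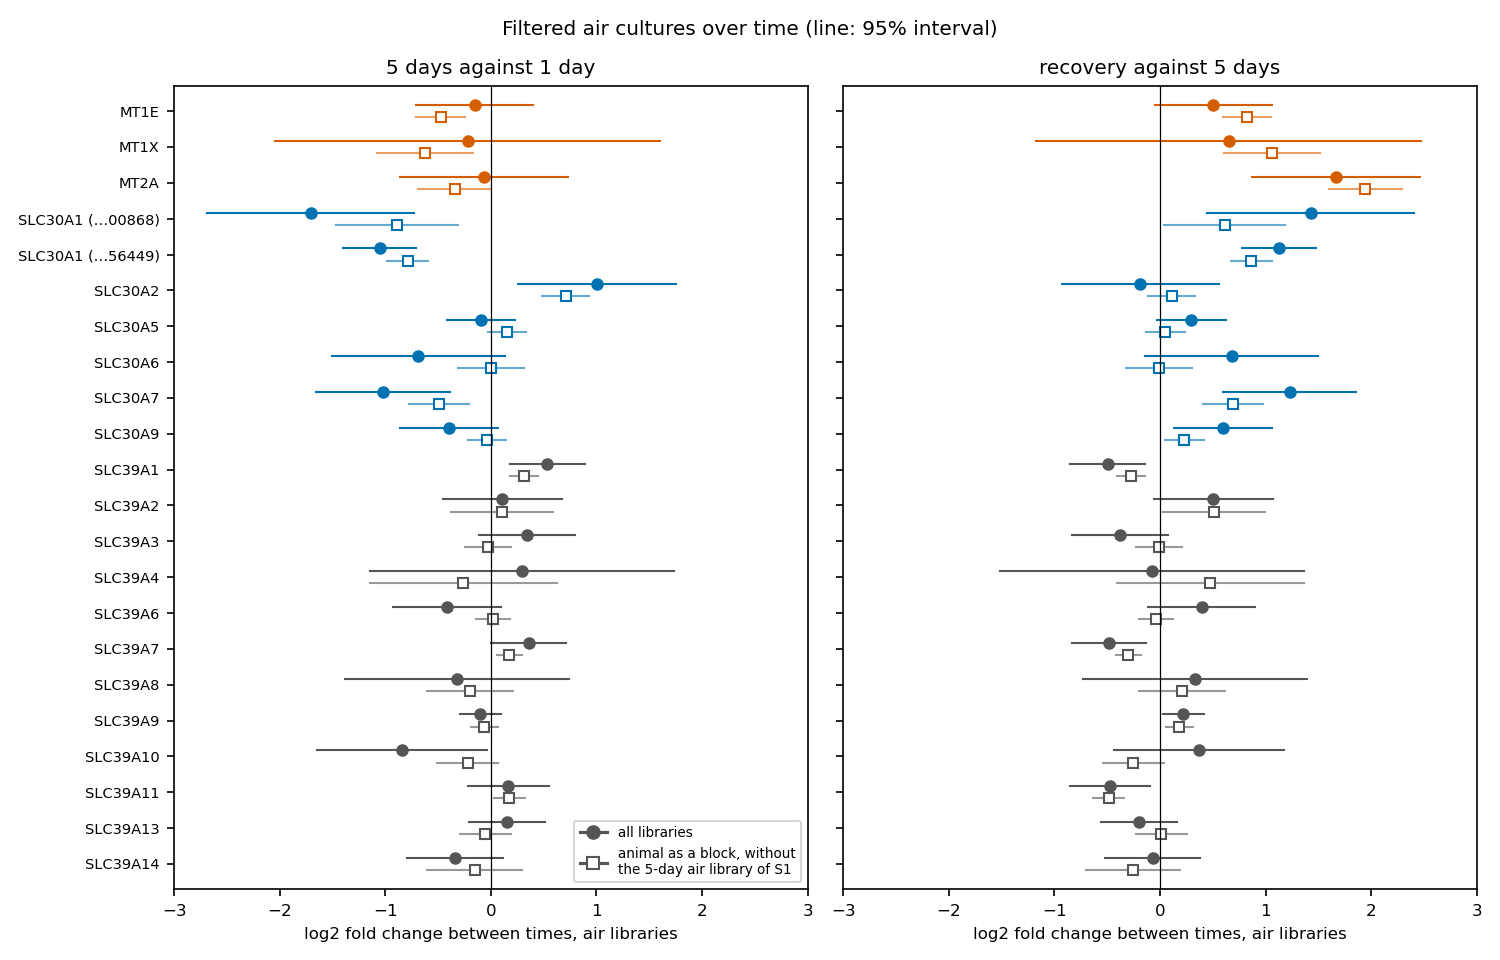
Log2 fold change between times in filtered air with its 95% interval, for all libraries (filled circles) and without the outlying air library and with animal as a block (open squares). MT2A, SLC30A1 (ENSMMUG00000056449) and SLC30A7 lie above 0 from 5 days to recovery in both fits, while SLC30A6 lies at 0.68 in the first and near 0 in the second.

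Among the exporters, SLC30A2 was 294.5, 452.7, 602.4 and 721.8 at 1 day in air, 1121, 737.3, 1001 and 1138 at 5 days and 600.7, 608.2, 1125 and 1373 after recovery. The 5-day libraries were above all 1-day libraries, as in 5.39% of all genes, and S4 was the highest animal in each of the 3 groups. The rise to 5 days was 1.00 ± 0.36 (adjusted p = 0.0985) and was called with the block (adjusted p = 0.00171). With the block and without the outlying library it was 0.71 (adjusted p = 0.000162). Recovery against 1 day gave 0.82, called only with the block (adjusted p = 0.277 without and 0.00611 with it). SLC30A9, which serves mitochondria, was higher after recovery than at 5 days with the block (0.60, adjusted p = 0.0386), and by 0.23 (adjusted p = 0.0520) when the outlying library was left out as well, which ended the call.

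Among the importers, no gene was called over time in air without the block. With it, SLC39A11, of the Golgi, was lower after recovery than at 5 days (−0.47, adjusted p = 0.00024) and than at 1 day (−0.31, adjusted p = 0.0101). Its values were 853.5, 749.9, 646.5 and 843.2 at 5 days and 630.9, 502.3, 489.3 and 602.6 after recovery, with no overlap, as in 7.51% of all genes. Without the outlying library the fall from 5 days, with the block, was −0.48 (adjusted p = 4.58e-05). SLC39A9 was called higher after recovery than at 5 days with the block, where 14.2% of all genes were. It was also called with the block and without the outlying library, where 13.6% of all genes were. SLC39A7, which releases zinc from the endoplasmic reticulum, and SLC39A1 were higher at 5 days than at 1 day with the block (0.36, adjusted p = 0.0357, and 0.54, adjusted p = 0.0110). Both were lower again after recovery (−0.48, adjusted p = 0.00543, and −0.50, adjusted p = 0.0109). In the outlying library they reached 3027 and 2884, and the other 23 libraries did not exceed 1797 and 1576. Without that library the changes to 5 days, with the block, were 0.17 (adjusted p = 0.0372) and 0.32 (adjusted p = 0.00168), where 9.70% of all genes were called higher. The changes from 5 days to recovery in that fit were −0.30 for SLC39A7 (adjusted p = 0.000589) and −0.28 for SLC39A1 (adjusted p = 0.00289).

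Over the same interval the basal cell markers moved as well. Their sum in air, mostly KRT5, ranged from 43321 to 61218 at 1 day, from 25626 to 48263 at 5 days and from 39440 to 49480 after recovery. TP63 fell to 5 days (−1.41, adjusted p = 0.0281) and rose to recovery (1.09, adjusted p = 0.0466), and ITGA6 rose to recovery (1.62, adjusted p = 0.0211). The 5-day sums without the outlying library were 25626 to 34390, below all air sums of the other times. TP63 was then called to 5 days (−0.83, adjusted p = 0.00817), while TP63 (0.50, adjusted p = 0.062) and ITGA6 (1.09, adjusted p = 0.0648) were not called to recovery. The sums of the 6 ciliated markers spanned 3708 to 19640 at 1 day, 7173 to 23787 at 5 days (9540 upward without the outlying library) and 7219 to 16546 in recovery libraries. None of the ciliated markers was called in air without the block. Their part in the changes of SLC30A1, SLC30A7 and MT2A was not tested.

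**Figure D4:**
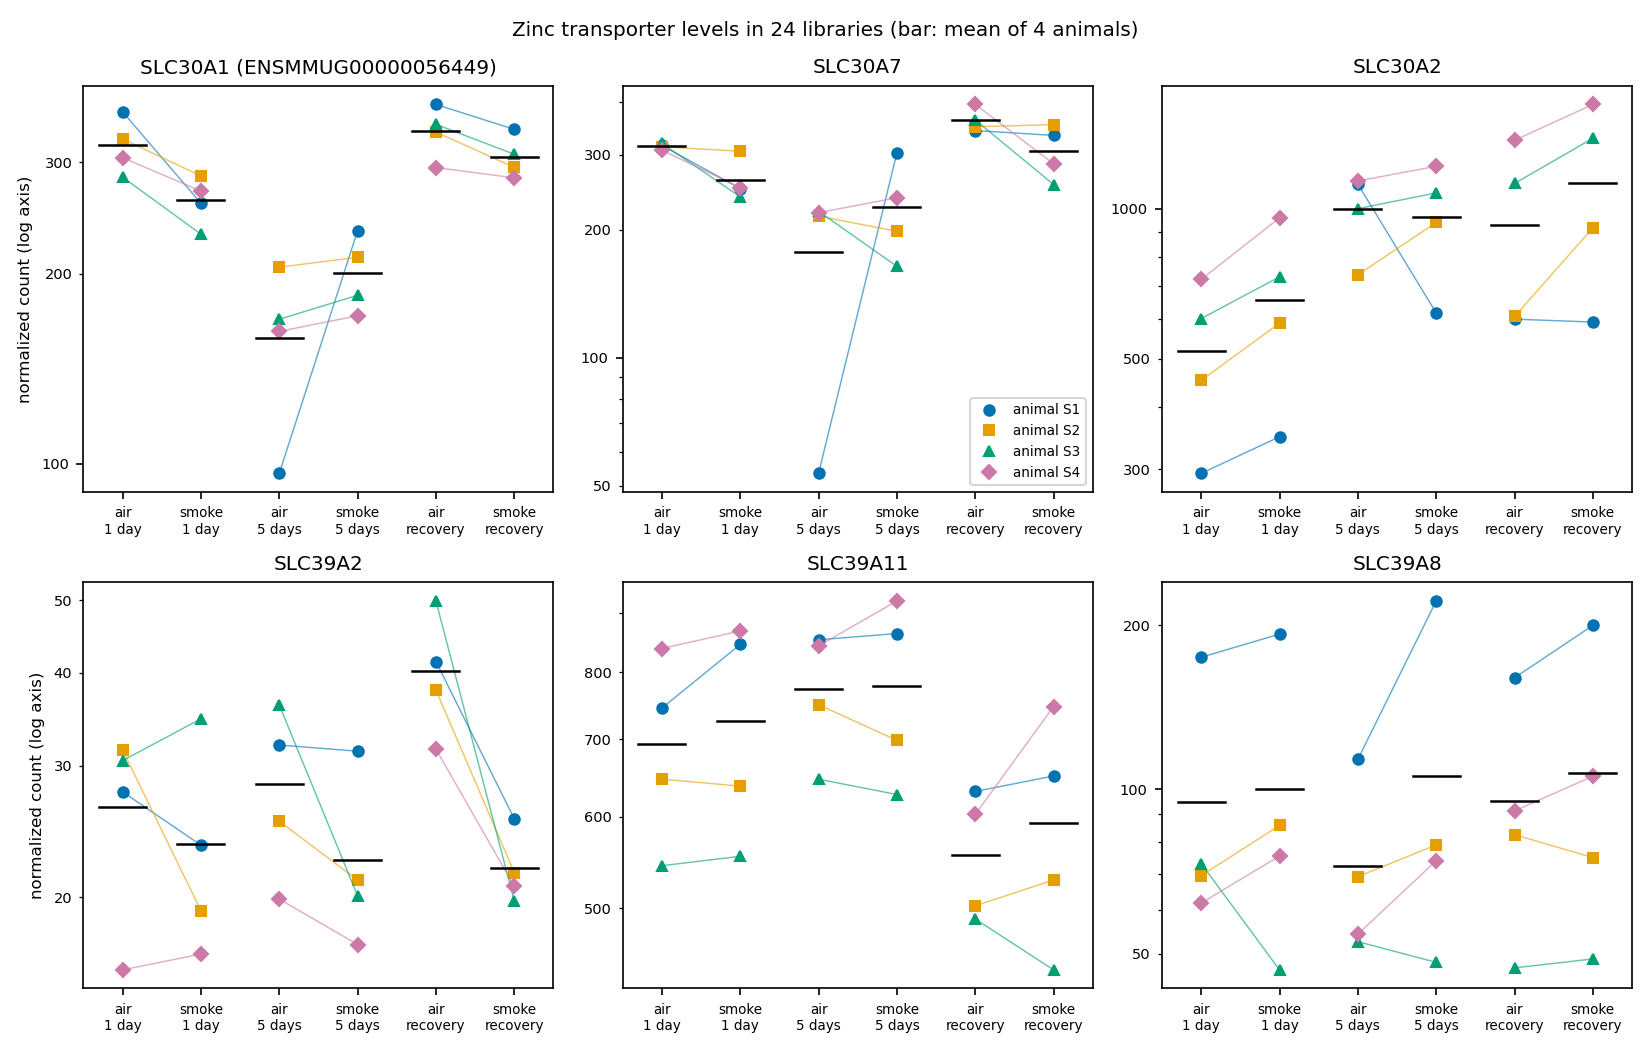
Normalized counts (log axis) of 6 zinc transporter genes in the 6 groups, 1 point per library, with lines joining air and smoke of the same animal and bars for the mean of 4 animals. In air, SLC30A1 and SLC30A7 are low at 5 days. In smoke, SLC30A7 at 5 days (164.0 to 303.4) overlaps with 1 day (239.1 to 306.1). The 4 smoke values of SLC39A2 after recovery (19.8 to 25.5) lie under the 4 air values (31.6 to 49.9), and SLC39A8 is highest in S1 in each group.

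The smoke-exposed cultures were compared over time after the values had been seen. They hold other libraries than the air contrasts. None of the 22 genes was called without the block in any interval, where 0.284%, 0.512% and 6.20% of all genes were called from 1 day to 5 days, from 5 days to recovery and from 1 day to recovery. At 5 days against recovery, MT2A in smoke was higher after recovery by 1.53 ± 0.38 (adjusted p = 0.0756) and MT1E by 0.91 ± 0.27 (adjusted p = 0.133), without overlap for either gene, as in 3.68% of all genes. MT1E after recovery in smoke was 1251, 1457, 1302 and 1433, above every 5-day smoke value. With the block, MT2A (adjusted p = 0.0003), MT1E (adjusted p = 0.00788) and SLC30A1 (0.62, adjusted p = 0.0251) were called higher and SLC39A11 lower (−0.40, adjusted p = 0.00285), against 3.60% of all genes higher and 4.47% lower. From 1 day to recovery the block called MT2A (1.26) and SLC30A2 (0.77) higher and SLC39A11 lower (−0.30), against 10.7% and 10.3%. Leaving out the outlying air library, which here enters only the spread, the fit without a block called 4 of 22 rows higher from 5 days to recovery (MT2A, MT1E and both SLC30A1 rows), against 2.21% of all genes.

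The remaining genes that passed the filter were called in none of the 12 comparisons without or with the block. SLC39A8 was highest in S1 in every group, at 113.5 to 221.4, and lowest in S3 in 5 of 6, at 46.7 to 73.1. SLC39A14, the other importer of manganese and iron, ranged from 41.1 to 93.7 and was lower in smoke in all 4 animals at 1 day and higher in all 4 after recovery, with overlapping groups and effects of −0.14 ± 0.22 and 0.25 ± 0.22. SLC39A6, an importer of the plasma membrane, lay between 623.2 and 873.6 in all libraries but the outlying one, where it was 243.8. SLC39A3 ranged from 211.0 to 618.9, SLC39A13 from 190.4 to 397.8, SLC39A4 from 4.18 to 102.9, SLC30A5 from 302.7 to 692.3 and SLC30A6 from 13.6 to 114.6. In these 5 genes 1 end of the range was that same library.

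Other metal-handling genes were followed on lists. MTF1 was tested with 3 other zinc genes (MCOLN1, TRPM7 and GPR39), and none was called for smoke in either fit. In air MTF1 was higher after recovery than at 5 days with the block (0.41, adjusted p = 0.0284), and not without it (adjusted p = 0.148). Without the outlying library and with the block it was 0.24 (adjusted p = 0.0789), which ended the call. The block with all libraries called 14.2% of all genes higher in this interval. Of 9 copper genes tested, 0 were called for smoke without the block, and SLC31A1, the copper importer, was higher at 5 days with it (0.42, adjusted p = 0.0447, and 0.28, adjusted p = 0.0222, without the outlying library). Of 13 iron genes, 0 were called for smoke without the block, and TFRC, the transferrin receptor, was higher at 5 days with it (1.23, adjusted p = 0.00592, and 0.91, adjusted p = 0.000427, without that library). With the block and all libraries, 125 of the 14062 genes tested were called higher for smoke at 5 days. In air TFRC fell to 5 days (−1.21, adjusted p = 0.0140) and rose to recovery (1.70, adjusted p = 0.000332), as IREB2 did in the second interval (0.78, adjusted p = 0.0119), while PCBP1 fell (−0.29, adjusted p = 0.0478). Of all genes, 2.32% were called lower to 5 days without the block. To recovery 5.87% were called higher and 5.47% lower. Without that library and without the block, TFRC gave −1.04 (adjusted p = 0.0306) and 1.53 (adjusted p = 0.00108), IREB2 0.47 (adjusted p = 0.000979) and PCBP1 −0.17 (adjusted p = 0.0839), which ended the call of PCBP1. In that fit 2.47% of all genes were called lower to 5 days and 4.62% higher to recovery. The 2 zinc-binding S100 genes tested, S100A8 and S100A9, were not called in these comparisons with all libraries. Without the outlying library and with the block, S100A8 was called higher after recovery in air than at 5 days (1.19, adjusted p = 0.00645) and than at 1 day (0.90, adjusted p = 0.0186). From 5 days to recovery, 13.6% of all genes were called higher in that fit.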

How the data were processed

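RNA sequencing of poly-A selected RNA was processed with FastQC, Trim Galore, Bowtie2 and RSEM, per the submitters' processing notes. For versions, genome build, annotation and normalization tool, the sources used here name none. The authors deposited 1 table whose values, although named as raw counts, are a normalized signal (normalized counts in the text). The median ratio to the geometric mean was 1.01 in every library. Between 82.5 and 84.6% of low values per library were whole multiples of 1 step within 0.1, so whole reads were not recovered and no count test was run. Precision is given as the spread between animals.

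Values were analysed as log2(value + 1), and fold changes on this scale understate those of low genes. The 14062 genes that reached 10 in at least 4 libraries were fitted with limma 3.58.1 in R 4.3.3: 6 group means over 24 libraries, no block, moderated variances with a trend. Tests were two-sided, and a gene was called at a Benjamini-Hochberg adjusted p under 0.05 over all genes tested. Adjusted p-values come from limma, apart from that of the exact permutation test (scipy 1.17.1). The script was tested on simulated data. The 9 comparisons were smoke against air at 3 times, the change of that effect between times, and air over time, and 3 comparisons of smoke over time were added. Comparisons of different times share libraries.

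Animal numbers pair the libraries by label. Deviations from group means correlated at 0.303 to 0.804 within animals (60 pairs) and −0.443 to 0.0149 between animals (180 pairs). The block result is given where it changes a call. Nothing states that an animal's cultures at each time were independent, so p-values measure the spread between these libraries.

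The genes and lists were chosen with earlier results of these data known. Named were each metallothionein that passed the filter, the transporters called in any comparison in the fit without or with the block (up to 12), the 2 of each family with the smallest p for smoke at each time, MTF1, and listed genes called for smoke. The lists were other zinc, copper, iron and zinc-binding S100 genes, and cell type markers. Of the 30 genes, 28 matched the reference in ID and symbol. Other settings tried were scaling, pseudocount, filter, threshold, only the libraries compared, and leaving out animals or libraries.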

Additional observations from a re-analysis of the deposited data

Results flagged for a closer look

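In 6 of the 132 sets of 4 libraries (22 genes in 6 groups) 1 library lay far from the other 3 by Dixon's test, at a level where chance gives about 1 in 20. The 5-day air library of S1 accounted for 3 of them. SLC30A7 was 53.4 there, against 215.3 to 221.1 in the other animals. SLC30A6 was 13.6, against 88.1 to 103.1. SLC39A13 was 398, against 199.9 to 217.6.

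The remaining 3 were in other libraries. SLC39A8 was 175 in the 1-day air library of S1, against 61.9 to 73.1, and this animal was the highest for the gene in all 6 groups. SLC39A4 was 27.9 in the 5-day smoke library of S1, against 10.5 to 13.4. SLC39A10 was 312 in the 5-day smoke library of S2, against 164.5 to 186.1.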

How the results depend on the processing

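No called value of a named gene changed sign under any alternative run. The counts of called genes moved, and the causes were not tested beyond what each setting changes by construction. With animal as a block (replicate block) the count went from 0 to 1 for smoke after recovery, from 2 to 6, 3 to 9 and 1 to 3 for air from 1 day to 5 days, 5 days to recovery and 1 day to recovery, and from 0 to 4 and 0 to 3 for smoke-exposed cultures in the last 2 of these intervals. The block changed no other count. In the comparisons where the count moved, more of all genes tested were called with the block too, as given above. With only the libraries of a comparison, air gave 0, 0 and 2 in the same order and smoke-exposed cultures gave 1 from 1 day to recovery. With only those libraries and the block, smoke against air gave 4 at 1 day and 3 after recovery, air gave 0, 0 and 6, and smoke-exposed cultures gave 5, 7 and 5. In that fit at 1 day, 4.25% of all genes were called higher and 4.86% lower. Without a filter, and with a filter at 50, air from 1 day to 5 days gave 1. From 1 day to recovery, smoke-exposed cultures gave 1 with the filter at 50 and 1 with equal library totals. At an adjusted p under 0.1 air gave 5 for the first interval and 8 for the second, and smoke-exposed cultures 1 for the second and 1 for the third. Counts here and in the next paragraph that lack a share of all genes were not set against one. They show how far the calls moved, and not whether these genes stood out from all genes.

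Leaving out each animal or library in turn gave 0 to 4, 1 to 7 and 0 to 1 for air over time without the block, and 3 to 7, 6 to 9 and 1 to 6 with it. For smoke-exposed cultures it gave 0 to 1, 0 to 5 and 0 to 2 without the block, and 0 to 5, 1 to 9 and 1 to 7 with it. For smoke against air it gave 0 at each time without the block, and with it 0 at 1 day and 5 days and 0 to 4 after recovery. The change of the smoke effect from 5 days to recovery gave 0 to 1 with the block, where SLC39A1 was called (0.31, adjusted p = 0.0221) without the 5-day air library of S1.

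MT2A from 5 days to recovery in air kept its call in 23 of 27 alternatives (adjusted p from 1.03e-07 to 0.157), and lost it without animal S2 (0.0713) or S4 (0.0989). From 1 day it kept its call in 20 of 28 (adjusted p from 2.28e-07 to 0.275), and lost it without S2, S3 or S4 (0.139, 0.111 and 0.275), without the 1-day air libraries of S3 or S4 (0.109 and 0.0892), and without the recovery air libraries of S1, S2 or S4 (0.0858, 0.0954 and 0.0554). SLC30A1 (ENSMMUG00000056449) from 1 day to 5 days kept its call in 24 of 27 and lost it without S4 (0.071). SLC30A7 from 5 days to recovery lost its call without S2 (0.0596) or S4 (0.0818). With only the libraries compared, with or without the block, none of these calls that use the 5-day air group held (adjusted p from 0.078 to 0.281). SLC30A1 (ENSMMUG00000000868) kept its call in 11 of 26. SLC39A2 after recovery was called in 4 of 27 alternatives, each with the block, and its effect ranged from −0.94 to −0.68. Most of these 27 did not use the block. Scaling to equal library totals shifted the median of all genes in a library by −0.23 to 0.13 on the log2 scale and turned the sign of 23 of 198 uncalled values, against 1 with the trimmed mean of M values. With 4 animals per group and reads not recovered, small changes in SLC39A2 and SLC39A4, which lie near the filter, were not detectable here.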
